A study of Mus musculus with 18 samples.

Results

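The collagen genes were the 41 protein-coding genes on autosomes of the mm9 GENCODE annotation whose symbol is Col, a number, the letter a and a number, out of 21418 autosomal protein-coding genes. Each was taken with its body and 10 kb on both sides, here called its window. H3K27ac ChIP-seq peaks were compared between WT and Kap1 KO mouse embryonic fibroblasts (MEFs), with H3K9me3 peaks of the same cells and KAP1 peaks of Hepa 1.6 cells set beside them. The MEFs were embryonic cells of the C57BL/6 background in the labels and of C57BL/6J in the methods. The WT cells carry loxP sites on both Kap1 alleles (Kap1 loxP/loxP) and the KO cells are their excised counterpart. For the RNA-seq of these MEFs, the study's methods describe a KO clone selected for stable growth and passaged for a long time beside the cells that were not excised, and whether the ChIP-seq used the same clone is not stated in the sources used here. Hepa 1.6 is a WT hepatoma line from a C57L mouse, so its KAP1 peaks come from another cell type and strain. Each mark and genotype had 1 library, and no test between genotypes was possible: all differences below compare 2 libraries, and the 95% intervals (exact Clopper-Pearson) cover counting within a library only.

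Collagens are the main proteins of the extracellular matrix. Their chains assemble into helical trimers that are secreted and then form fibrils (types I, II, III, V, XI), sheet-like networks in basement membranes (type IV), beaded filaments (type VI), hexagonal networks (types VIII and X), or sit on fibrils or in cell membranes. Fibroblasts are the main makers of type I collagen, and long stretches of H3K27ac, a mark of active promoters and enhancers, often lie over genes that define a cell type. H3K9me3 marks silent chromatin, and KAP1 is a corepressor that brings the H3K9 methyltransferase SETDB1 to sites chosen by KRAB zinc finger proteins.

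The H3K27ac lists held 36275 peaks (WT) and 36436 peaks (Kap1 KO), and their median widths were 1985 and 1927 bp. The H3K9me3 lists held 14425 and 4319 peaks, and the KAP1 list 13366. Scores are MACS scores as deposited, and many H3K27ac peaks sit at the same value of 3100, reached by 28.1% of autosomal peaks in WT and 22.2% in KO. Scores thus rank the weaker peaks only, and the width covered by peaks was the main measure. The share of cells that carry the mark and the amount of mark per cell cannot be told apart in such libraries.

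Fewer bases lay under H3K27ac peaks in Kap1 KO than in WT MEFs at 24 of 35 collagen genes with coverage to compare (68.6%), beside 61.3% of all genes, so the direction was close to that of other genes. Losses of at least 1.5-fold were seen at 12 of the 35, and the largest in bases were at the type I, IV and V chains. A peak was present in the window of 35 of 41 collagen genes in WT (85.4%, interval 70.8% to 94.4%) and of 34 in KO (82.9%), beside 68.7% and 68.9% of all genes. Collagen windows are long, with a median of 127 kb beside 35.5 kb for all genes, and per 100 kb of window they held 2.31 WT and 2.14 KO peaks beside 2.64 and 2.53 over all genes. Per length, the collagen genes as a group were therefore not richer in peaks than other genes. In 33 genes both genotypes had a peak (80.5%, beside 65.9% of all genes) and in 5 neither had one (12.2%, beside 28.3%). These 5 were Col9a1, Col20a1 and Col22a1, chains that sit on fibrils, Col4a4 of the basement membrane, and Col25a1, a membrane collagen. Col2a1 and Col10a1, the collagens of cartilage and of its growth zone, had peaks in WT only (4.88%, beside 2.81% of all genes). Col9a2 had in KO only a weak peak (score 55.3) that reached 100 bp into its window (2.44%, beside 3.03% of all genes).

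Of the 35 collagen genes with at least 1000 bp under peaks in 1 genotype or both, 12 had at least 1.5 times fewer covered bases in KO (34.3%, interval 19.1% to 52.2%), and 13.7% of all genes did so. At least 1.5 times more bases were seen in 5 collagen genes (14.3%), beside 9.76% of all genes. Summed over these 35 windows, covered bases went from 321 kb in WT to 261 kb in KO, a ratio of 0.812, and the ratio over all genes was 0.939. Bases in windows that overlap, such as those of Col4a1 and Col4a2, count once for each gene in these sums. The intervals likewise take such genes as separate. The median gene had a KO over WT ratio of 0.831 among the 33 collagen genes with peaks in both genotypes, beside 0.949 over 13983 genes, with quartiles of 0.633 and 1.07 beside 0.815 and 1.08. The wide spread runs both ways: 22 of the 33 had a ratio below 1 (66.7%, beside 62.3% of all genes) and 11 above it. Among genes with at least 10 kb covered in the mean of both genotypes, a limit chosen after the values were seen, 5 of 10 collagen genes passed the lower limit beside 10.4% of all such genes, and 1 of 10 passed the higher one beside 4.46%.

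**Figure D1:**
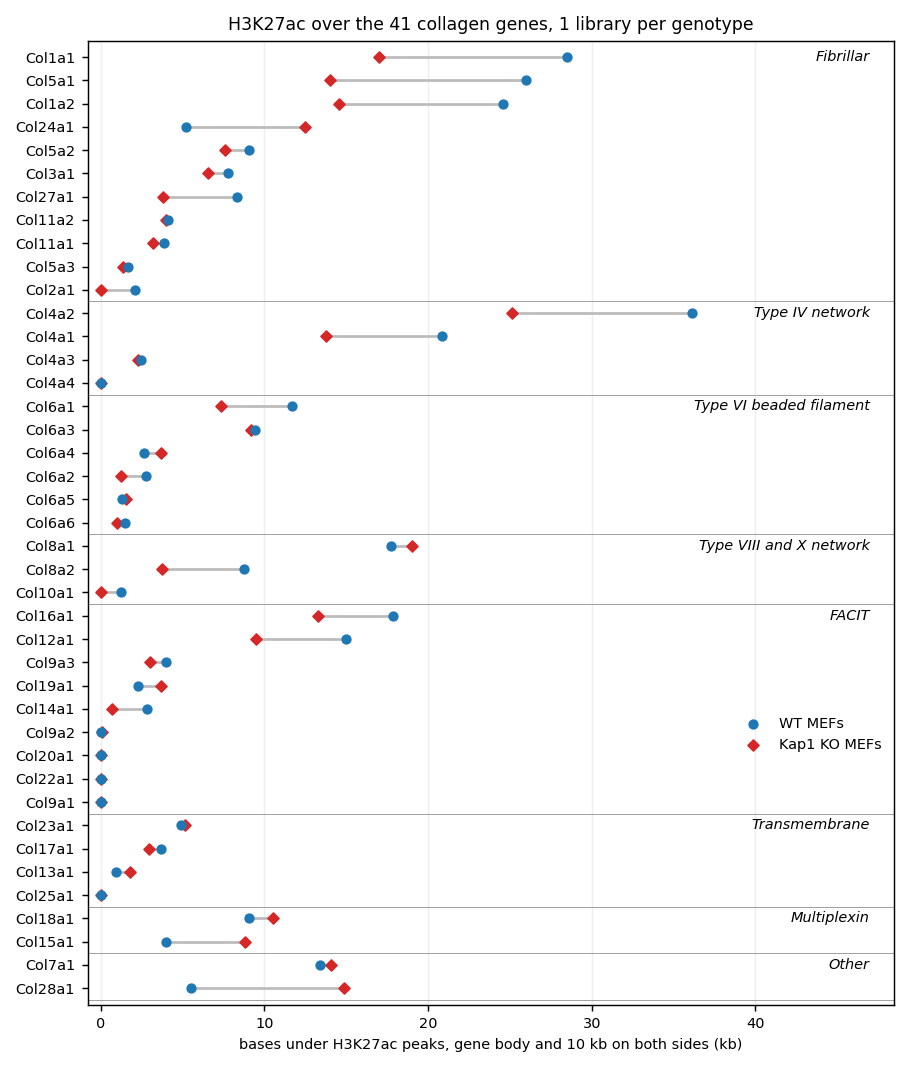
Bases under H3K27ac peaks (kb) in the window of each of the 41 collagen genes, ordered by family and level, with 1 library per genotype (circles WT, diamonds Kap1 KO, grey lines join both). The widest coverage, at Col4a2, goes from 36125 bp in WT to 25104 bp in KO, and Col28a1, Col24a1 and Col15a1 lie on the other side, with more bases in KO.

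**Figure D2:**
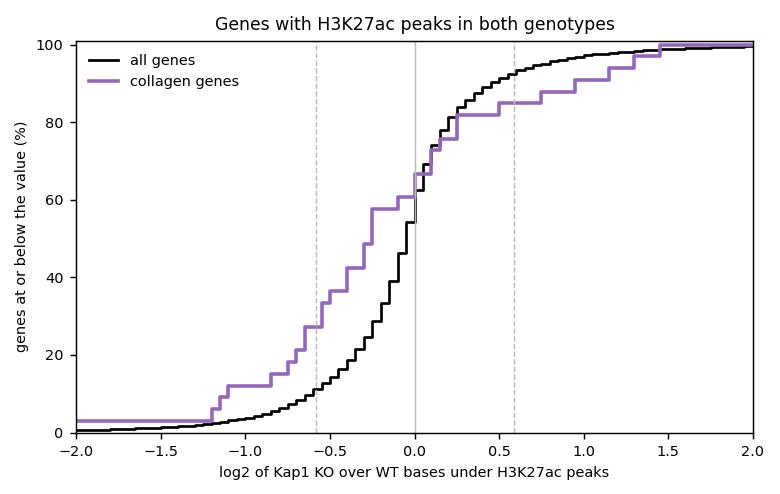
Cumulative share of genes (%) by the log2 of KO over WT covered bases, for genes with peaks in both genotypes and at least 1000 bp covered in 1 of them. The dashed lines mark 1.5-fold in either direction. The collagen curve (33 genes) lies above that of all genes (13983 genes) left of 0. It lies below that of all genes between the right dashed line and a log2 of 1.4. More bases in KO were seen at 11 of the 33 collagen genes, of which 5 reached 1.5-fold.

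The fibrillar collagens, which form the rope-like fibrils of skin, bone and tendon, had fewer covered bases in KO at 10 of 11 genes, with sums of 121 kb in WT and 84.5 kb in KO. In 5 of the 11 the loss passed 1.5-fold. Over all genes, 61.3% had fewer bases and 13.7% passed that limit. Col1a1 encodes the main chain of type I collagen and lies at chr11:94797538-94814356. Its window had 28471 covered bases in WT and 16980 in KO, 1.68-fold fewer, and ranked 177 and 545 among all genes. In WT a single peak of 19303 bp ran from upstream of the start over most of the body (chr11:94792761-94812063), and in KO 4 separate peaks lay beneath it. The KO peak at the start still spanned 5630 bp at the score ceiling, whereas the 2 peaks further into the body had scores of 78.8 and 154. Coverage thus stayed at the promoter and thinned towards the end of the gene, where the short annotated gene Gm17329 overlaps Col1a1.

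Col1a2, the partner chain at chr6:4454814-4491543, had 24590 covered bases in WT and 14579 in KO (1.69-fold fewer). Its promoter peak was 11051 bp wide in WT and 7872 bp in KO, both at the score ceiling. Of the 7 WT peaks, 5 had no KO peak beneath them, all inside the body, with scores between 91 and 208. The start kept its peak, and most of the lost bases were inside the gene. The 200 bases before the annotated starts are printed here because both promoters kept H3K27ac in KO while fewer bases of the bodies were covered, together with those of Col10a1 and Col14a1, whose start was marked in WT only. Capitals mark the letters searched on both strands, CCAAT for the CCAAT box, GGGCGG for the GC box and TGANTCA for AP-1, and TATAAA on the strand of the gene for the TATA box. The sequences read 5′ to 3′ on the strand of the gene, all on the plus strand of mm9.
Col1a1, chr11:94797338-94797537: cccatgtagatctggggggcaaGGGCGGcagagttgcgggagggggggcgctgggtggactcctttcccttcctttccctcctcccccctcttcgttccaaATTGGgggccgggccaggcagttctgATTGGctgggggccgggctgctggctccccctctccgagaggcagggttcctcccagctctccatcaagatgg
Col1a2, chr6:4454614-4454813: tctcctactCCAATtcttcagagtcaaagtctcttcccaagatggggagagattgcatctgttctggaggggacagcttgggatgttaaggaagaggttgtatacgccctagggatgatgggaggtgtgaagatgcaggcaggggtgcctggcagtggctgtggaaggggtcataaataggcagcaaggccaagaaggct
Col10a1, chr10:34109587-34109786: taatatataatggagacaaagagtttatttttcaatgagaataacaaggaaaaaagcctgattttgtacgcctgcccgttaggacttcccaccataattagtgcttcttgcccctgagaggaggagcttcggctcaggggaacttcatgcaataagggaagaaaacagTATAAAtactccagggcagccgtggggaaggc
Col14a1, chr15:55139105-55139304: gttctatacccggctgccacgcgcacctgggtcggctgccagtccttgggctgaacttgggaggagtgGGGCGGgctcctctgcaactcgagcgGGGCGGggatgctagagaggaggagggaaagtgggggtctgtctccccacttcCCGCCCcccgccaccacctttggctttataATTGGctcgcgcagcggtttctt

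Col1a1 held 2 CCAAT boxes, read on the reverse strand, at -99 and -73 from the start, and a GC box at -178. Col10a1 held a TATA box at -32 and no GC box, and Col14a1 had 3 GC boxes. Over the 41 collagen promoters, 13 held a CCAAT box (31.7%, beside 30.3% of 21410 promoters of that length), 22 a GC box (53.7%, beside 38.8%), 3 a TATA box (7.32%, beside 7.07%) and 0 an AP-1 site (beside 4.66%). Among genes with H3K27ac at a start, in either genotype, a GC box was in 14 of 24 collagen promoters (58.3%), beside 55.2% of all such promoters. Among genes without the mark at a start, it was in 8 of 17 collagen promoters (47.06%), beside 17.95% of all such promoters. The gap between collagen and all promoters was thus wider among genes without the mark. A match is a run of letters and does not show that a factor binds there.

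Col5a1 (chr2:27741945-27895034), the chain that sets fibril diameter together with type I, went from 11 peaks and 25985 bp in WT to 5 peaks and 13997 bp in KO. The 6 WT peaks with no KO peak beneath included an intronic peak of 3730 bp with a score of 557 and 2 peaks with scores below 55. Col27a1, a fibrillar chain of cartilage, went from 6 peaks and 8311 bp to 3 peaks and 3772 bp, and its promoter peak had scores of 1270 and 546. Col2a1, the main chain of cartilage, had 2 weak WT peaks (scores 126 and 56.1, 2101 bp) away from its start and none in KO. Of the other fibrillar genes, Col24a1 had more bases in KO and is described with the genes of that direction, and the rest stayed inside the 1.5-fold limit. Col3a1, the partner of type I in soft tissues, had 7789 and 6530 bp, and Col5a2 had 9064 and 7619 bp. Col11a1 had 3858 and 3206 bp with scores of 1948 and 327 for its highest peak, and Col5a3 had 1687 and 1365 bp. The only peak in the window of Col11a2 (4099 and 3994 bp) lay over the starts of the neighbours Rxrb and Slc39a7 and not over its own start.

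**Figure D3:**
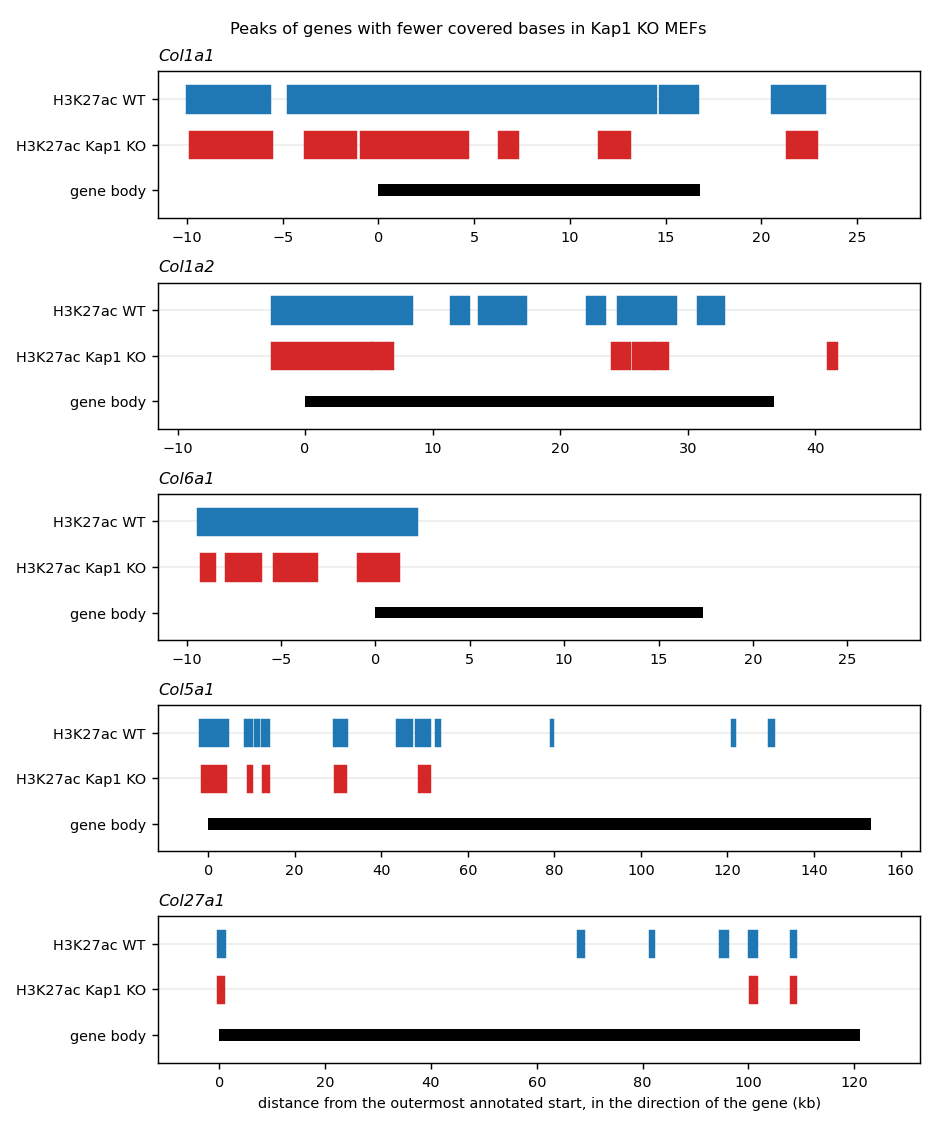
H3K27ac peaks of WT (blue) and Kap1 KO MEFs (red) along 5 collagen genes, as distance in kb from the outermost annotated start, to scale, with the gene body in black and each panel ending near the edge of the 10 kb flank. The WT peak of 19303 bp at Col1a1 and that of 11684 bp at Col6a1 each lie over 4 KO peaks, and at Col5a1 11 WT peaks face 5 KO peaks.

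The chains of basement membrane type IV collagen that are found in most tissues, Col4a1 and Col4a2, are transcribed away from each other and overlap by 22 bp at their 5′ ends, so they share part of their windows and the peak over both starts. That peak was 5645 bp wide in WT (chr8:11309378-11315022) and 3681 bp in KO, at the ceiling in both. Col4a1 had 20832 bp under 5 peaks in WT and 13777 bp under 4 in KO, just past the 1.5-fold limit. An intronic peak of 2362 bp with a score of 829 was in WT only, and an intronic peak of 9653 bp in WT was 8365 bp wide in KO. Col4a2 had the widest coverage of all collagen genes, 36125 bp under 13 peaks in WT and 25104 bp under 10 in KO. That was 1.44-fold fewer, inside the 1.5-fold limit, and Col4a2 ranked 90 and 201 among all genes. Col4a3 and Col4a4, the chains of specialised membranes such as that of the kidney, lie head to head with 71 bp between them. Neither had H3K27ac at a start. The only peak of Col4a3 (2471 and 2259 bp) lay over the start of the neighbour Mff.

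Among the type VI genes, whose chains form beaded filaments around cells, Col6a1 and Col6a2 had at least 1.5 times fewer bases in KO. At Col6a1 (chr10:76171537-76188913) a single WT peak of 11684 bp at the ceiling covered the start and the upstream flank. In KO 4 peaks of at most 2381 bp lay beneath it (7334 bp in all), with scores between 52.4 and 1227. Where gaps of up to 2 kb between peaks were filled in both lists, Col6a1 had 11684 and 8447 bp (1.38-fold) and Col1a1 29509 and 20465 bp (1.44-fold), so both fell inside the limit and kept the direction. At Col6a2 the start peak was 2786 bp wide at the ceiling in WT and 1238 bp with a score of 520 in KO. Col6a3, the largest chain, had 9428 and 9178 bp. Col6a4 had 2644 and 3669 bp, Col6a5 had 1310 and 1547 bp, and Col6a6 had 1488 and 1013 bp (1.47-fold fewer). None of these had a peak at a start.

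Of the network-forming type VIII and X genes, Col8a1 had 17722 bp in WT and 18999 bp in KO under 7 peaks each, so that not all widely marked collagen genes had fewer bases. Col8a2 had 8734 and 3714 bp. Its peak at an inner annotated start was 2805 bp wide at the ceiling in WT and 1618 bp with a score of 286 in KO, and another peak lay over the start of the neighbour Adprhl2 in both. Col10a1, a marker of hypertrophic cartilage, had a single peak of 1262 bp and a score of 130 at its start in WT and none in KO.

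The FACIT collagens sit on the surface of fibrils. Col12a1 had 7 peaks and 15008 bp in WT and 4 peaks and 9507 bp in KO, and its start peak narrowed from 5520 bp at the ceiling to 3057 bp with a score of 1646. Col14a1 had 3 WT peaks, none above a score of 65.7 and the 1 counted at its start ending upstream of it within the 1 kb margin, and in KO only an intronic peak of 669 bp with a score of 51.1, so its loss rests on peaks near the lowest score of the lists. Col16a1 had 17854 and 13257 bp, of which a WT peak of 9648 bp and KO peaks of 4624 and 2484 bp lay over the start of the neighbour Pef1. Col9a3 had 3959 and 2985 bp, and its only KO peak lay over the start of the neighbour Ogfr. Without peaks that lay only at other genes, a setting added after the values were seen, both genes passed the lower limit. Col7a1, which anchors epithelial basement membranes, had 13421 and 14042 bp under 5 peaks each. Of these bases, 3206 bp in WT and 2283 bp in KO lay under a peak over the start of the neighbour Pfkfb4. Col18a1, the source of endostatin, had 9050 and 10526 bp, and the membrane collagen Col17a1 had 3671 and 2925 bp. Col23a1, also a membrane collagen, had 4874 and 5176 bp. A peak over the start of the neighbour Agxt2l2 made up 3256 bp in WT and 3305 bp in KO, at the ceiling in both. The peak at the start of Col23a1 itself was 1618 bp wide with a score of 412 in WT and 1078 bp with a score of 98.4 in KO.

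At least 1.5 times more bases lay under H3K27ac peaks in KO at Col28a1, Col24a1, Col15a1, Col13a1 and Col19a1. Col28a1, a collagen with von Willebrand factor domains at chr6:7947808-8142617, had 5496 bp under 3 peaks in WT and 14846 bp under 6 in KO (2.70-fold more), and ranked 5956 and 746 among all genes. A peak 20.7 kb inside the gene was at the ceiling in both genotypes, 3520 bp wide in WT and 5749 bp in KO, and another had scores of 89.4 in WT and 1097 in KO. The 4 KO only peaks had scores between 68.6 and 1354 and lay in introns or, for the 1 with a score of 244, over an inner annotated start. None of them lay at the outermost start.

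Col24a1, a fibrillar chain described in bone, had 5229 bp under 2 peaks in WT and 12463 bp under 7 in KO. All 7 were intronic, and the 5 KO only peaks had scores between 75.1 and 234. Col15a1, a basement membrane collagen with an endostatin-like end, had 4013 bp under 2 peaks in WT and 8794 bp under 4 in KO. A KO only peak of 4160 bp (chr4:47310365-47314524, score 1195) lay 91.4 kb from the start of Col15a1. Its other KO only peak, of 843 bp with a score of 68.1, lay at an inner annotated start. Col13a1, a membrane collagen, had in WT a peak of 917 bp (score 59.9) downstream and in KO another of 1760 bp (score 373) in an intron, which did not overlap. Col19a1 had an intronic peak in both genotypes (scores 1093 and 1168) and in KO also a peak of 1279 bp with a score of 187 at its start.

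**Figure D4:**
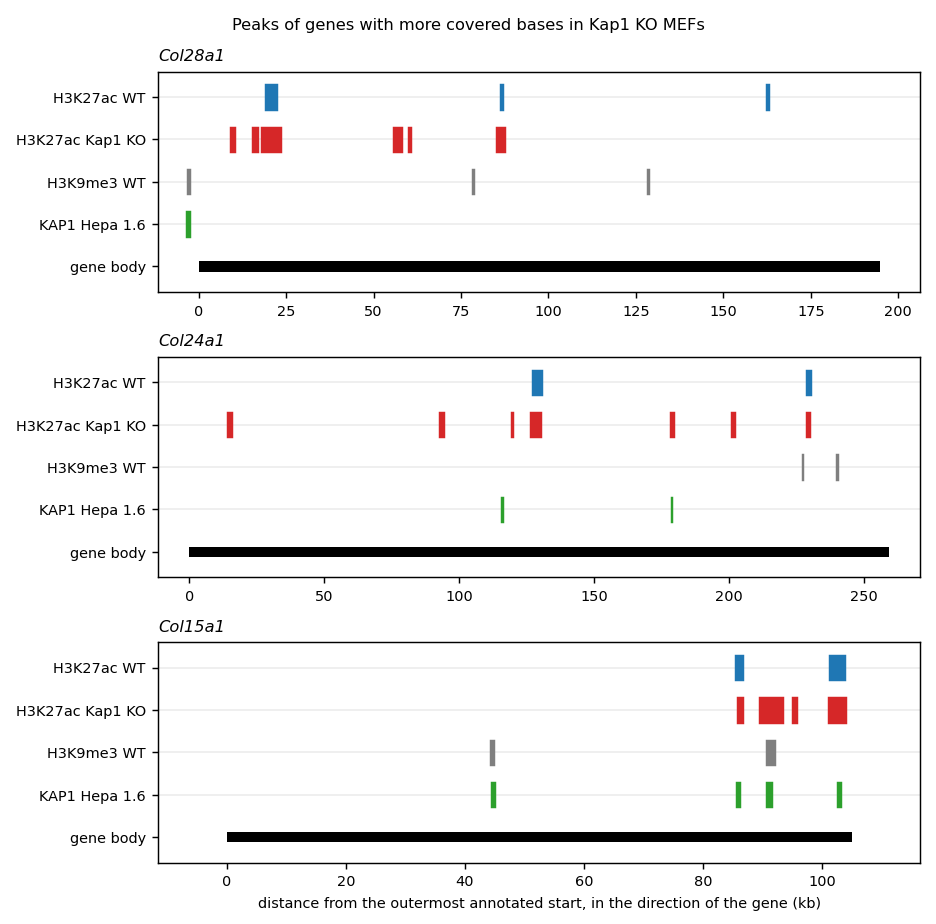
Peaks along Col28a1, Col24a1 and Col15a1 as distance in kb from the outermost annotated start, in the direction of the gene, with H3K27ac of WT (blue) and Kap1 KO MEFs (red), H3K9me3 of WT MEFs (grey) and KAP1 of Hepa 1.6 cells (green). Most KO only H3K27ac peaks have no H3K9me3 or KAP1 peak beneath them, and at Col15a1, 91 kb from the start, all of KO H3K27ac, WT H3K9me3 and KAP1 meet.

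At 3 sites in collagen windows a WT H3K9me3 peak shared bases with a Hepa 1.6 KAP1 peak, 2 in Col15a1 and 1 upstream of Col28a1. These were 3 of the 34 collagen H3K9me3 peaks (8.82%), beside 14.5% of the 14273 autosomal H3K9me3 peaks. The site 91 kb into Col15a1 had H3K9me3 in WT (chr4:47311535-47313058, score 314), KAP1 in Hepa 1.6 (chr4:47311551-47312552, score 312), no H3K9me3 in KO and the KO only H3K27ac peak over both. Of all 24 KO only H3K27ac peaks in collagen windows it was the 1 that lay over WT H3K9me3 (4.17%), beside 5.08% of the 7945 such peaks genome-wide. The site upstream of Col28a1 had H3K9me3 at chr6:8145005-8145882 (score 146) and KAP1 at chr6:8145147-8146170 (score 461, also an entry of the SETDB1 list), with no H3K27ac peak there in either genotype. The other Col15a1 site, 44.5 kb from the start, had no H3K27ac peak in either genotype and its sequence is not printed. The middle 300 bases of the KAP1 peaks at the 2 sites given by position are printed, as the places where the repressive marks met at genes with more H3K27ac in KO, followed by those of the KO only H3K27ac peak 9.66 kb inside Col28a1, which held 2 AP-1 matches. All read along the plus strand of mm9. Capitals mark coding bases of Col15a1 (50 bases, chr4:47312100-47312149) in the first sequence and AP-1 letters (TGANTCA) in the last.
Col15a1 KAP1 site, chr4:47311902-47312201: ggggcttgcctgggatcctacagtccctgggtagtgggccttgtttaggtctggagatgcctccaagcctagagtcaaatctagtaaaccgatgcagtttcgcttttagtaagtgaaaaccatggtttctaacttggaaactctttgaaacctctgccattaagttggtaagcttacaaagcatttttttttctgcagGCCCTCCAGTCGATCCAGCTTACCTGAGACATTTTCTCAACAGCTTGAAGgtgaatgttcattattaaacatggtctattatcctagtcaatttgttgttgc
Col28a1 KAP1 site, chr6:8145509-8145808: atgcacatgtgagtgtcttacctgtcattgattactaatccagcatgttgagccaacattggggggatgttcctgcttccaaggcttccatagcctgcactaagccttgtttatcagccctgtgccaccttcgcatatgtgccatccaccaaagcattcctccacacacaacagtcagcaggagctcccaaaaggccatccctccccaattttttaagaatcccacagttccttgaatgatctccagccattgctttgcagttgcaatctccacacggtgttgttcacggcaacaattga
Col28a1 KO only H3K27ac peak, chr6:8132812-8133111: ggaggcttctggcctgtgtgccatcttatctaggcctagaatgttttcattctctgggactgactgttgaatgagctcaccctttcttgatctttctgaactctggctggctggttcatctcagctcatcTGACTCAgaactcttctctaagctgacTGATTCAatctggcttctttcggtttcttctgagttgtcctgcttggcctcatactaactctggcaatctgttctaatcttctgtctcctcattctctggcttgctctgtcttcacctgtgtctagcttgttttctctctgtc

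Counted as distinct peaks, collagen windows held 124 H3K27ac peaks in WT and 115 in KO. Of the WT peaks, 42 had no KO peak beneath them (33.9%, interval 25.6% to 42.9%), beside 23.0% of all WT peaks. Of the KO peaks, 24 had no WT peak (20.9%, interval 13.9% to 29.4%), beside 22.5% of all KO peaks. The share of peaks with no counterpart was thus above that of all peaks in WT and near it in KO. Peaks of 1 genotype were weaker than shared ones, with median scores of 102 (WT only) and 103 (KO only) beside 1182 and 546 for shared peaks, and 15 of the 42 and 7 of the 24 scored below 80, the cutoff named in the methods. Of the peaks of 1 genotype, 36 of 42 WT only and 19 of 24 KO only peaks lay at no annotated start. The same share was not counted for shared peaks, so no contrast is drawn. The AP-1 letters TGANTCA were found in the middle 300 bases of 9 of 24 KO only collagen peaks (37.5%), beside 29.2% of all KO only peaks, and of 10 of 42 WT only collagen peaks (23.8%), beside 22.1%.

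A start site with H3K27ac within 1 kb was found for 21 collagen genes in WT (51.2%, beside 54.6% of all genes) and 22 in KO (53.7%, beside 53.2%). In 19 genes both genotypes had it (46.3%, beside 51.9% of all genes). Col10a1 and Col14a1 had it in WT only (4.88%, beside 2.68% of all genes), and Col15a1, Col19a1 and Col28a1 in KO only (7.32%, beside 1.26%). This count took any annotated coding transcript. With the outermost start alone it was 20 in WT (beside 52.7% of all genes) and 17 in KO (beside 51.2%), since Col8a2 was marked at an inner start in both genotypes, and Col6a3, Col15a1, Col18a1 and Col28a1 at inner starts in KO. The order of the genotypes thus turned with the definition of a start.

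H3K9me3 peaks were in the windows of 14 collagen genes in WT (34.1%, interval 20.1% to 50.6%), beside 19.7% of all genes, and per length they were near the level of other genes, 6.22 peaks per Mb beside 5.66. Col23a1 had 7 of the 34 peaks, Col13a1 and Col18a1 5 each, and Col28a1 3. Col2a1, Col5a3, Col15a1 and Col24a1 had 2 each, and Col4a2, Col4a4, Col6a6, Col8a2, Col14a1 and Col19a1 had 1 each. The highest score was 489, at Col13a1 (chr10:61325440-61327001), and the only peak within 1 kb of a start was also at Col13a1 (score 103). None of the 34 WT peaks overlapped a KO peak, as was the case for 96.9% of WT peaks genome-wide. In KO, Col22a1 held 6 H3K9me3 peaks and Col25a1 held 1 (2 of 41 genes, 4.88%, beside 3.45% of all genes), all with scores below 63. At Col4a2 a WT H3K9me3 peak of 919 bp lay within an intronic H3K27ac peak present at the ceiling in both genotypes. Type I, III and VI genes other than Col6a6, and Col5a1 and Col5a2, had no H3K9me3 peak in either genotype. Of the 12 genes with at least 1.5 times fewer bases in KO, Col2a1, Col8a2 and Col14a1 had a WT H3K9me3 peak. All 5 genes with at least 1.5 times more bases had at least 1. Those 5 are long, with bodies between 105 and 326 kb, and the number of peaks in a window was not adjusted for length here. The same shares among all genes past either limit were not counted, and a link between the mark and the direction was not tested. By position, 1 of the 24 KO only H3K27ac peaks in collagen windows lay over WT H3K9me3 (4.17%, beside 5.08% of all such peaks).

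KAP1 peaks of Hepa 1.6 cells were in the windows of 11 collagen genes (26.8%, interval 14.2% to 42.9%), beside 37.2% of all genes, with 2.93 peaks per Mb beside 8.67. None of the 41 genes had KAP1 within 1 kb of a start (interval up to 8.60%), beside 19.2% of all genes. Col15a1 had 4 KAP1 peaks, Col23a1 and Col24a1 2 each, and Col4a3, Col4a4, Col6a6, Col8a2, Col9a3, Col11a2, Col19a1 and Col28a1 had 1 each. The highest score was 569, for a peak upstream of Col19a1 with its middle at -7.95 kb from the start. Of the 16 peaks, 9 lay under KO H3K27ac peaks of MEFs (56.3%, beside 40.2% of all KAP1 peaks) and 7 under WT ones (43.8%, beside 37.4%). Those of Col4a3 (Mff), Col8a2 (Adprhl2), Col9a3 (Ogfr) and Col11a2 (Rxrb and Slc39a7), and 1 of Col23a1 (Agxt2l2), were among both. They lay in the flanks, at the starts of the neighbours named in brackets, so both shares include peaks at other genes. At Col24a1 a KAP1 peak (chr3:145133876-145134516, score 111) lay under a KO only H3K27ac peak. Of the KAP1 peaks in collagen windows, 3 belonged to the SETDB1 list, all of whose 2957 entries are also entries of the KAP1 list. They were at Col4a4, Col23a1 and Col28a1. No KAP1 peak list of MEFs was used here, so binding in these cells was not tested.

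The enzymes and chaperones that modify, fold and crosslink collagen chains had ratios closer to 1 than the collagen genes in the median. Of 29 listed genes 28 were matched, and 26 had an H3K27ac peak at a start in both genotypes, all but Adamts3 and Glt25d2. Covered bases were at least 1.5 times fewer in KO at 4 of 26 (P4ha2, Leprel1, Glt25d1, Adamts2; 15.4%, beside 13.7% of all genes) and more at 1 (Pcolce2; 3.85%, beside 9.76%), with a median ratio of 0.960, near that of all genes. Serpinh1, the collagen chaperone HSP47, had 10993 bp in WT and 11354 bp in KO, and Lox and Loxl2, which crosslink fibrils, had 6417 and 7749 bp and 36687 and 36109 bp. P4ha2, a subunit of prolyl 4-hydroxylase, had 6839 and 4160 bp, and Adamts2, which trims the end of procollagen I, had 16101 and 9776 bp. H3K9me3 was in the windows of 8 of the 28 in WT (28.6%, beside 19.7% of all genes) and of 1 in KO (3.57%, beside 3.45%), and Hepa 1.6 KAP1 in those of 10 (35.7%, beside 37.2%).

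**Figure D5:**
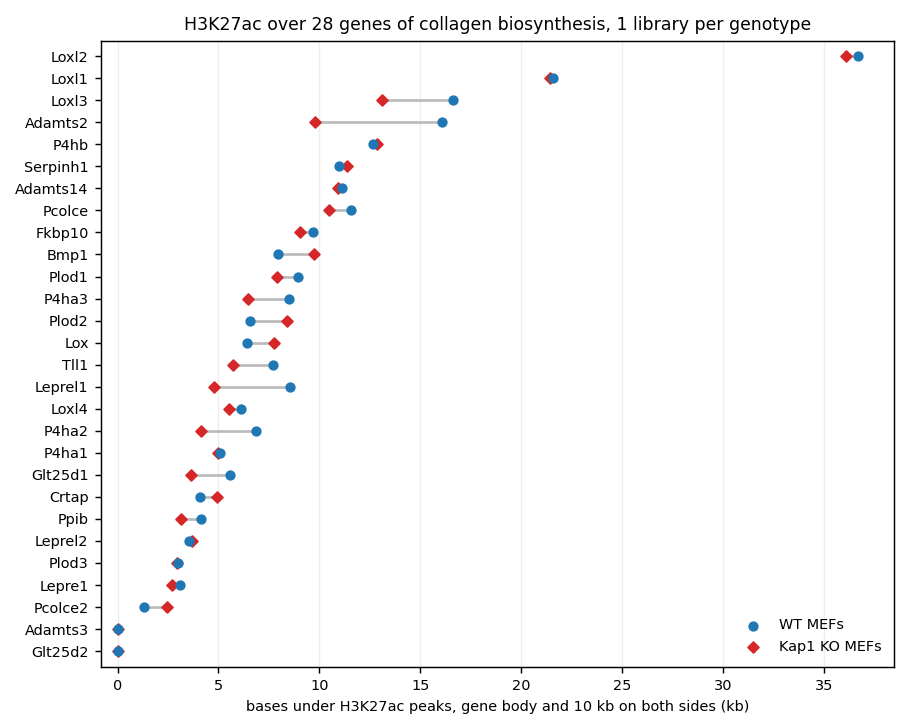
Bases under H3K27ac peaks (kb) in the windows of the 28 biosynthesis genes in WT (circles) and Kap1 KO MEFs (diamonds), 1 library per genotype. Most pairs lie close together, as for Loxl2 with 36687 and 36109 bp, and Adamts2 stands apart with 16101 and 9776 bp.

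The labelled cell type was compared with marker lists. Of 12 fibroblast markers, 10 had H3K27ac at a start in WT and 9 in KO, where Dcn, which encodes a small proteoglycan of collagen fibrils, had none. Fap and Lum had none in either. Covered bases were at least 1.5 times fewer in KO at 3 of the 10 fibroblast markers counted (30.0%, beside 13.7% of all genes) and more at 0. The median ratio was 1.02 over the markers with peaks in both genotypes, which leaves out Dcn. The 3 were Pdgfra (6237 and 4131 bp), Twist2 (18882 and 10361 bp) and Dcn (3066 and 0 bp). Start peaks were found for 0 of 8 hepatocyte markers in WT and 1 (Apob) in KO, for 0 and 1 of 3 muscle markers (Myog in KO), 1 and 0 of 4 epithelial, 2 and 2 of 4 endothelial, 1 and 2 of 3 macrophage and 1 and 1 of 3 chondrocyte markers (Sox9). Summed covered bases went from 110 kb in WT to 98.8 kb in KO over the fibroblast list, from 27.3 to 17.9 kb over the epithelial list and from 7.19 to 3.09 kb at Sox9, the only chondrocyte marker with a peak. They went from 12.8 to 17.3 kb over the endothelial, from 13.9 to 18.04 kb over the macrophage, from 9.13 to 12.3 kb over the hepatocyte and from 0 to 1.31 kb over the muscle list. Epithelial Krt8 had 13771 and 6443 bp and Krt18 1630 and 0 bp, endothelial Cdh5 had 1401 and 8093 bp and Tie1 1034 and 0 bp, and macrophage Csf1r had 0 and 6223 bp and Ptprc 2243 and 1284 bp. Apob had 888 and 5025 bp and Myog 0 and 1310 bp. Markers of other cell types thus moved in both directions. The part of cell composition in the differences at collagen genes was not tested.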

How the data were processed

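Peak lists of 6 ChIP-seq libraries were used, 1 per mark and condition: H3K27ac and H3K9me3 in WT and Kap1 KO MEFs, and KAP1 and SETDB1 in Hepa 1.6 cells. Per the methods and the submitters' processing notes, reads were mapped to mm9 with Bowtie2 2.2.1 and peaks called with MACS 1.4 against total input. The score is the MACS value deposited by the authors. The methods name a cutoff of 80, but the MEF lists start at 50. The depth is unknown, since the lists hold no read counts, and signal under the threshold of the caller is not seen. Other libraries were not analysed here.

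Genes and starts came from the mm9 GENCODE annotation (protein-coding, autosomes). A peak was counted with at least 1 shared bp in the gene body and 10 kb on both sides, covered bases were the union of peaks in that window, and a start was counted when a peak came within 1 kb. Genes with at least 1000 bp covered in 1 genotype were set against a fold of 1.5. Coordinates count from 1. The collagen genes and all lists were chosen with earlier results of these data known. Described one by one were the 10 genes with most covered bases, those past the fold, those with H3K9me3 or KAP1 peaks and neighbours with shared windows; others are given by values in their family. The alternatives changed the score cutoff, the window, the overlap, the fold, the number of peaks used and the filling of gaps. Overlaps were tested on simulated data. Intervals came from scipy 1.17.1 and plots from matplotlib 3.10.9, with tables handled in pandas 2.3.3 and numpy 2.4.6 under Python 3.11.15.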

Additional observations from a re-analysis of the deposited data

How the results depend on the processing

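No paired analysis was possible because each mark and genotype had 1 library. Over the alternatives, 62 values stayed within 1.5 times (ratios within 10%) of those reported and 11 did not. With the 50% of each list that had the highest scores, the median KO over WT ratio of covered bases was 0.959, the same as over all genes (0.959), while the ratio of sums stayed at 0.819. Under it 27 collagen genes were counted, of which 8 had at least 1.5 times fewer bases in KO (all genes 12.1%) and 3 more (all genes 8.01%). Of the 8, 5 were among the 12 reported. Of the 41 collagen genes, 12 had a start peak in KO (all genes 48.0%), 0 had H3K9me3 in KO (all genes 1.73%) and 7 had KAP1 (all genes 22.5%). With a score of at least 80, 0 had H3K9me3 in KO (all genes 1.22%). With the gene body alone, 5 genes had KAP1 (all genes 25.5%). With the same number of H3K9me3 peaks in both genotypes, 9 genes had H3K9me3 in WT (all genes 8.95%). At 2-fold, 6 of 35 genes had fewer bases (all genes 6.45%) and 3 more (all genes 5.86%). By the number of peaks in place of bases, 9 of 35 were lower (all genes 18.7%) and 8 higher (all genes 14.7%). Among the 8 were Col1a1 and Col6a1, whose broad WT peak faced several KO peaks. Chosen after seeing the data, filled gaps of up to 2 kb left 10 of 35 lower (all genes 14.7%). Leaving out peaks only at other genes, also chosen then, gave 14 of 33, and the share over all genes was not computed. Under every setting of covered bases at 1.5-fold (9 of them), Col27a1, Col6a2 and Col8a2 were lower and Col15a1 and Col28a1 higher. Peaks close to the lowest score set what can be seen at Col14a1, Col9a2, Col22a1 and Col25a1.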
